A study of Mus musculus with 3 samples.

Results

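The Slc25 genes encode the mitochondrial carriers, and binding of the nuclear receptors RARα and RXRα was examined at their gene starts in mouse liver. The members were all protein-coding genes of the GENCODE M1 annotation with a symbol that begins with Slc25a and a number, which gave 44 of 22380 protein-coding genes. All values came from mouse livers, and the labels give the mice as male C57BL/6 of the wild type, 3 months old, and name no treatment or altered allele. There were 3 libraries of chromatin immunoprecipitation and sequencing (ChIP-seq), namely 1 precipitated with an antibody to RXRα, 1 precipitated with an antibody to RARα and 1 of input chromatin. The labels do not give the number of mice behind a library, and the chromatin was that of whole liver, so that cell types of the liver cannot be told apart. With 1 library per antibody there was no replicate, no test was made, and an interval given below covers counting error only. The RXRα track held 9999939 reads and the input track 9999292. The study reports more uniquely mapped reads than this for RXRα, and still more for RARα. Counts of both factors were thus taken at unlike depths. RNA levels were not analysed here, so binding is described without reference to expression.

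Mitochondrial carriers are small proteins of the inner mitochondrial membrane that exchange metabolites, nucleotides and cofactors between the cytosol and the matrix. In liver they serve gluconeogenesis, the urea cycle, fatty acid synthesis and oxidation, and the supply of ATP. RARα is a receptor for retinoic acid and binds DNA with RXRα, which is also the partner of PPARα, FXR, LXR, PXR and other receptors. Such pairs bind direct repeats (DR) of a half-site of the form AGGTCA, and the number after DR is the number of bases between both half-sites.

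The half-sites searched on both strands were AGGTCA, then AGTTCA, then GGGTCA and then GGTTCA. A direct repeat of any of them with 1 to 5 bases between lay within 100 bp of the middle of the strongest bin of 5 RXRα regions at the Slc25 genes. These elements are shown because they place a receptor-like sequence in or beside an RXRα region. Those of Slc25a13, Slc25a22 and Slc25a39 lay inside the region, while those of Slc25a45 and Slc25a31 lay outside its edges. They are written 5′ to 3′ from the NCBI37/mm9 genome with 6 bases on each side, and the capitals mark the half-sites. The first is a DR1 near Slc25a13 at chr6:6169934-6169958 on the minus strand, and the second is a DR5 near Slc25a22 at chr7:148626632-148626660 on the minus strand. The third is a DR1 in a coding exon of Slc25a39 at chr11:102266138-102266162 on the plus strand, and the fourth is a DR1 in Slc25a45 at chr19:5880947-5880971 on the minus strand. The last is a DR2 upstream of Slc25a31 at chr3:40508927-40508952 on the minus strand.
Slc25a13 DR1: cattaaAGGTCAtGGGTCAaagggc
Slc25a22 DR5: ctcctcAGGTCAtcctgGGGTCAgagtca
Slc25a39 DR1: gcgtagAGGTCAgAGGTCAaggact
Slc25a45 DR1: tcctcaGGGTCAaAGGTCAccatgc
Slc25a31 DR2: tgagagGGTTCAgcGGGTCAcggtga

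The 100 bp on each side of the middle of the strongest RXRα bin are also shown for 2 of the 4 genes with the highest ratio of RXRα to input, because they differ in what they hold. They are written 5′ to 3′ on the strand of the gene, with the half-sites of either orientation in capitals. The window of Slc25a13 at chr6:6169869-6170069 on the minus strand holds the DR1 shown above. The window of Slc25a47 at chr12:110089133-110089333 on the plus strand holds 2 half-sites. They face opposite ways and form no direct repeat of the spacings searched. The windows of Slc25a10 and Slc25a30, the others of these 4 genes, held 0 half-sites and are not shown.
Slc25a13: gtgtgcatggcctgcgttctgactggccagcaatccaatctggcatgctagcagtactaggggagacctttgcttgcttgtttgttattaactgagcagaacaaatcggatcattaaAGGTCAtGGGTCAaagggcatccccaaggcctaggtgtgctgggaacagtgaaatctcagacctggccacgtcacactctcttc
Slc25a47: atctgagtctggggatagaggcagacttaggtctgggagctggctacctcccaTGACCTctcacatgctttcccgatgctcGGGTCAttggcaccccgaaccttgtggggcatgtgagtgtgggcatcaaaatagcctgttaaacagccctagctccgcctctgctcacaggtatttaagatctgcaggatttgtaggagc

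RARα peaks were near more Slc25 genes than the share of all genes would give, and the strongest of them stood at Slc25a30, Slc25a3, Slc25a22 and Slc25a10. Of the 44 Slc25 genes, 34 (77.3%) had a RARα peak with a score over 20 and a summit within 10 kb of the gene start, against a background of 52.2% of all protein-coding genes. Among the 326 other solute carrier (Slc) genes, the count was 175 (53.7%). The score is the number that the deposited peak list gives for each peak, and the list does not say whether it is a fold over input or a number of tags. Among the bound Slc25 genes the median of the highest score was 63.5, against 48 over all bound genes and 47 over the other Slc genes, and 25 of the 34 lay above the median of all bound genes.

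RXRα also stood at more Slc25 genes than the share of all genes would give, with the highest ratios at Slc25a13, Slc25a10, Slc25a30 and Slc25a47. An RXRα region was defined as bins of 32 bp with 20 or more times as much RXRα as input, where the input of a bin was set to the genome mean of 0.603 if it was lower. Such a region lay within 10 kb of the start of 27 Slc25 genes (61.4%), against a background of 39.8% of all genes and 158 (48.5%) of the other Slc genes. The median of the highest ratio was 31.5 over the Slc25 genes, with a range from 6.64 to 148, against 14.9 over all genes and 19.9 over the other Slc genes. Of the 44 genes, 33 lay above the median of all genes. The highest or strongest bin of a gene is here the bin with the highest ratio. At 5 of the 27 genes with a region this bin also had the most RXRα reads, so its position depends on input reads as well. The order of the genes depends on the measure too. Over the 20 kb around the start, RXRα was 6.53 times input at Slc25a47, 6.03 at Slc25a10 and 5.99 at Slc25a30. By this measure Slc25a39, at 5.46, also stood above Slc25a13, at 4.10.

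Input reads were also more numerous near the Slc25 genes. Over the 20 kb around a start, the median was 208.5 RXRα reads at the Slc25 genes and 87.4 at all genes, whereas the median input was 111.8 reads and 80.8 reads. The input at 36 of the 44 Slc25 genes was above the median input of all genes. The part of this in the counts above was not tested.

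A RARα peak and an RXRα region were called co-localized when they shared at least 25% of the narrower of both. Co-localized binding was found at 24 Slc25 genes (54.5%), against a background of 23.5% of all genes and 78 (23.9%) of the other Slc genes. All 24 genes that had both a RARα peak and an RXRα region had them co-localized, whereas 2042 of the 7292 genes of the annotation with both had them at separate places. At the other Slc genes, 44 of 122 had them at separate places. The remaining Slc25 genes were 10 with RARα without an RXRα region, 3 with RXRα without a RARα peak and 7 with neither.

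**Figure D1:**
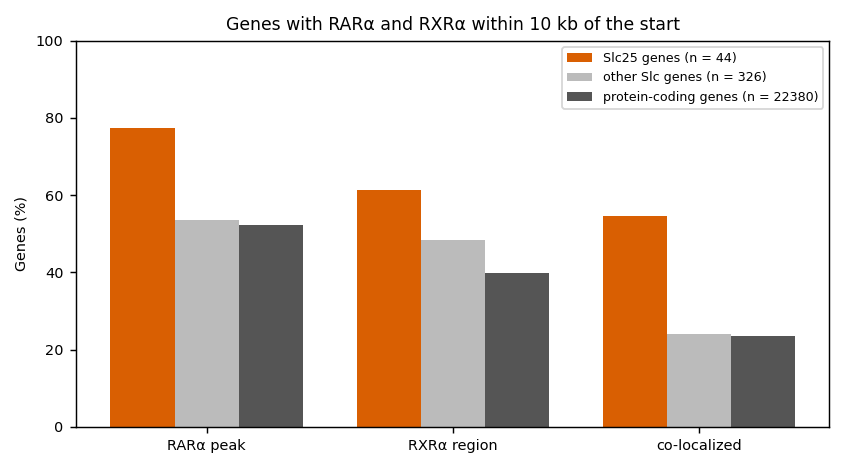
Percentage of genes (vertical axis) with a RARα peak, an RXRα region and a co-localized pair within 10 kb of the gene start, for the 44 Slc25 genes, the 326 other Slc genes and all 22380 protein-coding genes, with 1 library per antibody and no error bars. The Slc25 bars stand at 77.3%, 61.4% and 54.5%, above both other classes shown.

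Closer to the start the counts kept the same order. Within 1 kb, 32 Slc25 genes had a RARα peak (40.8% of all genes), 23 had an RXRα region (21.5% of all genes) and 20 had a co-localized pair (15.8% of all genes). Another protein-coding gene started within 10 kb of 14 members and within 1 kb of 6, and a peak there counted for each gene. The genes that had a RARα peak within 10 kb and none within 1 kb were Slc25a2 and Slc25a41.

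Promoters rich in CpG are often open in many tissues, so the counts were also divided by the number of CpG in the 300 bp from 250 bp before to 50 bp after the start. The Slc25 promoters had a median of 15 CpG against 11 over all genes, and 34 of the 44 held at least 10, against 54.0% of all promoters. Among promoters with at least 10 CpG, RARα was near 26 of 34 Slc25 genes (76.5%) and 73.3% of all genes. RXRα was near 21 of these 34 (61.8%) against 50.7%, and co-localized binding was at 18 (52.9%) against 32.9%. Among promoters with fewer CpG, 8 of 10 Slc25 genes had RARα against 27.4% of all genes, 6 had RXRα against 27.0%, and 6 had both co-localized against 12.5%.

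The carriers of aspartate, glutamate and ornithine, which link mitochondria to the urea cycle, included the gene with the highest RXRα ratio of a bin. Slc25a13, the aspartate-glutamate carrier of liver known as citrin, starts on chromosome 6 at 6167173 on the minus strand. Its highest bin held 148 RXRα reads (95% Poisson interval 125 to 174) and 1 input read at -2796 bp from the start, where negative values are upstream. The RARα peak at this place had a score of 52 and its summit at -2832 bp, and RXRα over the whole peak was 15.4 times input. The DR1 shown above lay 23 bp from the middle of this bin. The bin with the most RXRα reads held 170 against 2 input reads, at -2764 bp. Another RARα peak of score 34 at 448 bp, in an intron of the gene, overlapped an RXRα region with a ratio of 69.7.

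Slc25a15, the ornithine carrier of the urea cycle, starts on chromosome 8 at 23509093 on the minus strand and had 6 RXRα regions and 4 RARα peaks. Its highest RXRα bin held 57 reads (43.2 to 73.9) against 0 input reads at -2060 bp, a ratio of 94.6, and no RARα peak with a score over 20 lay there. Its strongest RARα peaks, with scores of 103 and 83, lay at 103 bp and -127 bp around the start. The first of these overlapped an RXRα region with a ratio of 21.6, so that the highest values of both factors at this gene lay at different places. The bin with the most RXRα reads held 70 against 1 input read at 3828 bp, inside a RARα peak of score 26.

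Slc25a22, a glutamate carrier, starts on chromosome 7 at 148623791 on the minus strand. It had 11 RARα peaks, the largest number at a member, but some of them lay nearer to the start of Cend1, Lrdd or Rplp2. The strongest of the 11, with a score of 126, lay in an intron at 2606 bp. It was not co-localized, with RXRα at 5.62 times input over the peak. The highest RXRα bin held 56 reads (42.3 to 72.7) against 0 input reads at -2850 bp, in a coding exon of the neighbouring gene Lrdd, and coincided with a RARα peak of score 25. The DR5 shown above lay 9 bp from the RARα summit and 5 bp from the middle of the RXRα bin. The bin with the most RXRα reads held 90 against 4 input reads, at 4990 bp.

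The other genes placed in the class of amino acid and glutathione carriers are given next. Slc25a39, which has been linked to mitochondrial glutathione, had a highest RARα score of 66. Its highest ratio was 87.9, in its 5′ untranslated region (53 RXRα reads, 0 input reads). The DR1 in its coding exon lay in a separate RXRα region with a ratio of 48.0. It was 11 bp from the middle of the strongest bin of that region and inside a RARα peak of score 21. Slc25a48 had a ratio of 76.3 and a score of 39, Slc25a44 a ratio of 58.1 and a score of 67, and Slc25a29, a carrier of basic amino acids, a ratio of 31.5 and a score of 51. All of these genes had co-localized binding, and with Slc25a13, Slc25a15 and Slc25a22 they make 7 of the 12 genes of this class. Slc25a40, Slc25a38 and Slc25a2 had RARα peaks with scores of 28, 57 and 25 and no RXRα region. Slc25a12 and Slc25a18 had neither. In all, RARα was near 10 of the 12, against 52.2% of all genes, and RXRα near 7, against 39.8%. Co-localized binding was at 23.5% of all genes.

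All 6 genes placed in the class of di- and tricarboxylate carriers had an RXRα region, and 5 had RARα co-localized with it. Slc25a10, the dicarboxylate carrier, starts on chromosome 11 at 120353154 on the plus strand and had 8 RXRα regions and 7 RARα peaks. Co-localization was found for 5 of these peaks. Its highest RXRα bin held 124 reads (103 to 148) against 1 input read at -2257 bp. The RARα peak with the highest score at this gene, 116, had its summit at -2329 bp and RXRα at 15.7 times input. At this gene the strongest places of both factors were therefore the same.

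Slc25a1, the citrate carrier that exports acetyl units for fatty acid synthesis, starts on chromosome 16 at 17928312 on the minus strand and had lower values. Its highest bin held 18 RXRα reads (10.7 to 28.4) against 0 input reads at -185 bp, a ratio of 29.9, and overlapped a RARα peak of score 60 with the summit at 67 bp. A RARα peak of score 67 at 6167 bp was not co-localized. Slc25a11, the oxoglutarate carrier of the malate-aspartate shuttle, had a ratio of 64.7 at -8028 bp and a RARα score of 102 at -7094 bp, and this RARα summit lay in the 5′ untranslated region of Pfn1. Slc25a34 had a ratio of 84.6 at -217 bp and a score of 78 at 5811 bp, in the 5′ untranslated region of Tmem82. Slc25a21, the oxoadipate carrier, had a ratio of 28.2 and a score of 22, the lowest score among the bound members. Slc25a35 had a ratio of 21.6 and no RARα peak with a score over 20, the best score being 17.

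Slc25a20, the carnitine-acylcarnitine carrier of fatty acid oxidation, starts on chromosome 9 at 108564429 on the plus strand. It had a single RARα peak, with a score of 65 and the summit at 126 bp, in its 5′ untranslated region, where RXRα was 10.7 times input. Its highest ratio of 33.0 came from 66 RXRα reads (51.0 to 84.0) and 2 input reads at 676 bp. The bin with the most RXRα reads held 90 against 6 input reads at 4 bp, where the ratio was thus below 20.

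Among the carriers of cofactors and nucleotides, RARα was near 6 of 8, RXRα near 4 and both co-localized at these 4. Over all genes these shares were 52.2%, 39.8% and 23.5%. Slc25a47, a carrier made mainly in liver, starts on chromosome 12 at 110089339 on the plus strand and had the most RXRα reads in a bin of all members. This bin at -106 bp had a ratio of 100.5 against 2 input reads, and the interval of its RXRα reads ran from 174 to 231. The RARα peak at 16 bp had a score of 104 with RXRα at 24.1 times input, and 6 of its 9 RARα peaks were co-localized. Over the 20 kb around its start, 1183.8 RXRα reads stood against 181.2 input reads.

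Slc25a42, the carrier of coenzyme A, starts on chromosome 8 at 72736204 on the minus strand and had 9 RXRα regions, the largest number at a member. Its highest bin held 49 reads (36.3 to 64.8) against 0 input reads at -357 bp, a ratio of 81.3, and its strongest RARα peak had a score of 70 at -11 bp. Slc25a33, a pyrimidine nucleotide carrier, had a RARα score of 104 at 41 bp and a ratio of 44 at -1199 bp, and Slc25a32, a folate and flavin carrier, had a score of 72 and a ratio of 38.2 within 100 bp of its start. Slc25a16 had a RARα score of 53 and no RXRα region. Slc25a26, the S-adenosylmethionine carrier, and Slc25a36 had neither.

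Among the 9 carriers of adenine nucleotides and phosphate, 7 had RARα, 5 had RXRα and 4 had both co-localized. Over all genes these shares were 52.2%, 39.8% and 23.5%. Slc25a3, the phosphate carrier that supplies ATP synthase, had the second highest RARα score of all members, 127 at 109 bp, in its 5′ untranslated region. Its highest RXRα ratio was 13.3, from 8 RXRα reads and 0 input reads, and its bin with the most reads held 22 RXRα reads against 4 input reads. RXRα over the RARα peak was 6.82 times input, so signal was present below the threshold of 20. Slc25a25, an ATP-Mg and phosphate carrier, starts on chromosome 2 at 32306965 on the minus strand and had 35 RXRα reads (24.4 to 48.7) against 0 input reads at -1596 bp, a ratio of 58.1, in an intron of Naif1. Its strongest RARα peak had a score of 45 at 20 bp.

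The exchangers of ADP and ATP differed among themselves. Slc25a5 had a ratio of 48.1 at 8787 bp and a RARα score of 57 at -1 bp, whereas Slc25a4 had a score of 37 and a ratio of 13.3. Slc25a31, whose product is known from testis, had 91 RXRα reads against 4 input reads at -3896 bp and 0 RARα peaks of any score within 10 kb. The DR2 shown above lay 58 bp from the middle of this bin. Slc25a23 had a ratio of 44.8 and a score of 43, and Slc25a17, a peroxisomal carrier of the family, a ratio of 43.0 and a score of 56. Slc25a41 had a RARα score of 78 at 9427 bp and no RXRα region, and that peak lay nearer to the start of Khsrp. Slc25a24 had neither.

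The relatives of the uncoupling proteins held the highest RARα score. Slc25a30 starts on chromosome 14 at 76186844 on the minus strand, and its RARα peak of score 187 had the summit at 59 bp, in the 5′ untranslated region, with RXRα at 4.15 times input. Its highest RXRα bin lay farther away, at -6197 bp, with 109 reads (89.5 to 131) against 1 input read. This bin lay inside a RARα peak of score 30, over which RXRα was 19.6 times input. The bin with the most RXRα reads held 171 against 7 input reads, at -6293 bp. Slc25a27 had 19 RXRα reads against 0 input reads at -180 bp, a ratio of 31.5, at a place nearer to the start of Cyp39a1, and a best RARα score of 18. Slc25a14 had neither.

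Of the remaining members, Slc25a37, an iron importer known as mitoferrin, had a ratio of 54.8 and a score of 63, while its relative Slc25a28 had a score of 53 and a ratio of 16.6. Slc25a45 had a ratio of 63.1 and a score of 36, and the DR1 shown above lay just outside another RXRα region of this gene with a ratio of 31.5. Slc25a46, an outer membrane member of the family, had a score of 48 and a ratio of 17.5. Slc25a43 had neither.

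**Figure D2:**
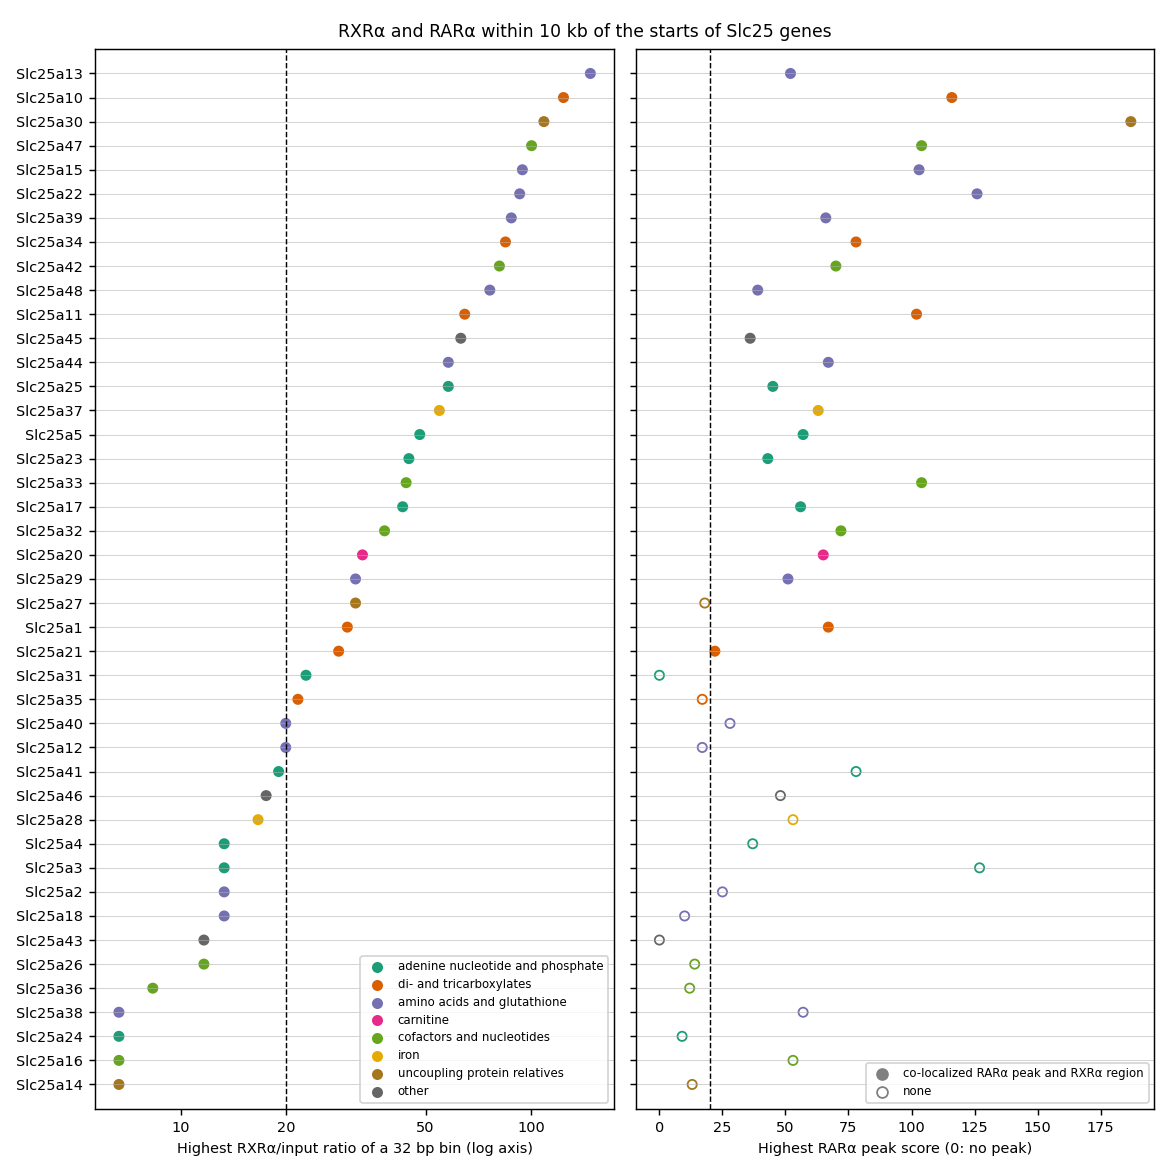
Each row is 1 of 43 of the Slc25 genes, ordered by the highest RXRα/input ratio of a 32 bp bin within 10 kb of the start (left, log axis), with the highest RARα peak score on the right (0 where no peak was listed), points coloured by the class of carrier and filled on the right where a RARα peak and an RXRα region were co-localized. The dashed lines mark a ratio of 20 and a score of 20, and 24 genes have filled points on the right.

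The 7 members with neither a RARα peak of a score over 20 nor an RXRα region were Slc25a12, Slc25a14, Slc25a18, Slc25a24, Slc25a26, Slc25a36 and Slc25a43. Their best RARα scores below the threshold were 17, 13, 10, 9, 14 and 12 in this order, and Slc25a43 had no RARα peak of any score. Their highest RXRα bins held 12, 4, 8, 4, 7, 5 and 7 reads, and at 0 input reads 13 are needed to reach a ratio of 20. Slc25a12, with 12 reads (6.20 to 21.0) against 0 input reads at its start, and Slc25a40, with the same number, each had a ratio of 19.9 and missed the threshold by 1 read. Slc25a35, just above it, had 13 reads. Over the 20 kb around the start, Slc25a12 had 84.4 RXRα reads against 95 input reads, and Slc25a40 had 66 against 96. Fewer RXRα than input reads in this window were found at 12 of the 17 members without an RXRα region. All 7 members with neither were among these 12. Binding at the 7 genes with neither was thus not detectable by these thresholds at the depth of the deposited tracks, which differs from absent.

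The 10 members with RARα and no RXRα region had scores from 25 to 127 with a median of 53, against a median of 66.5 over the 24 members with co-localized binding. At 8 of the 10 the strongest RARα peak lay within 1 kb of the start. Across the 44 members the highest RARα score and the highest RXRα ratio had a Spearman rho of 0.597, and across all 22380 genes rho was 0.669. Genes are not independent replicates, and both values share the chromatin around the same start.

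The positions of both factors differed. The members had 105 RARα peaks, of which 57 had the summit within 1 kb of the member's start, and 101 RXRα regions, of which 32 had the midpoint within 1 kb of it. Within 1 kb of the nearest protein-coding gene start, be it the member or a neighbour, the counts were 68 (64.8%) and 35 (34.7%). Over all genes these last shares were 61.9% of 18093 peaks and 35.1% of 15094 regions, so the Slc25 genes were close to all genes in this respect. The strongest RARα peak lay within 1 kb of the start in 25 of 34 genes, and the strongest RXRα bin in 13 of 27. By annotation, 30 RARα summits lay in the 5′ untranslated region of the member, 27 in its introns and 32 outside protein-coding genes. Of the RXRα regions, 8 lay in the 5′ untranslated region of the member, 33 in its introns and 41 outside protein-coding genes.

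**Figure D3:**
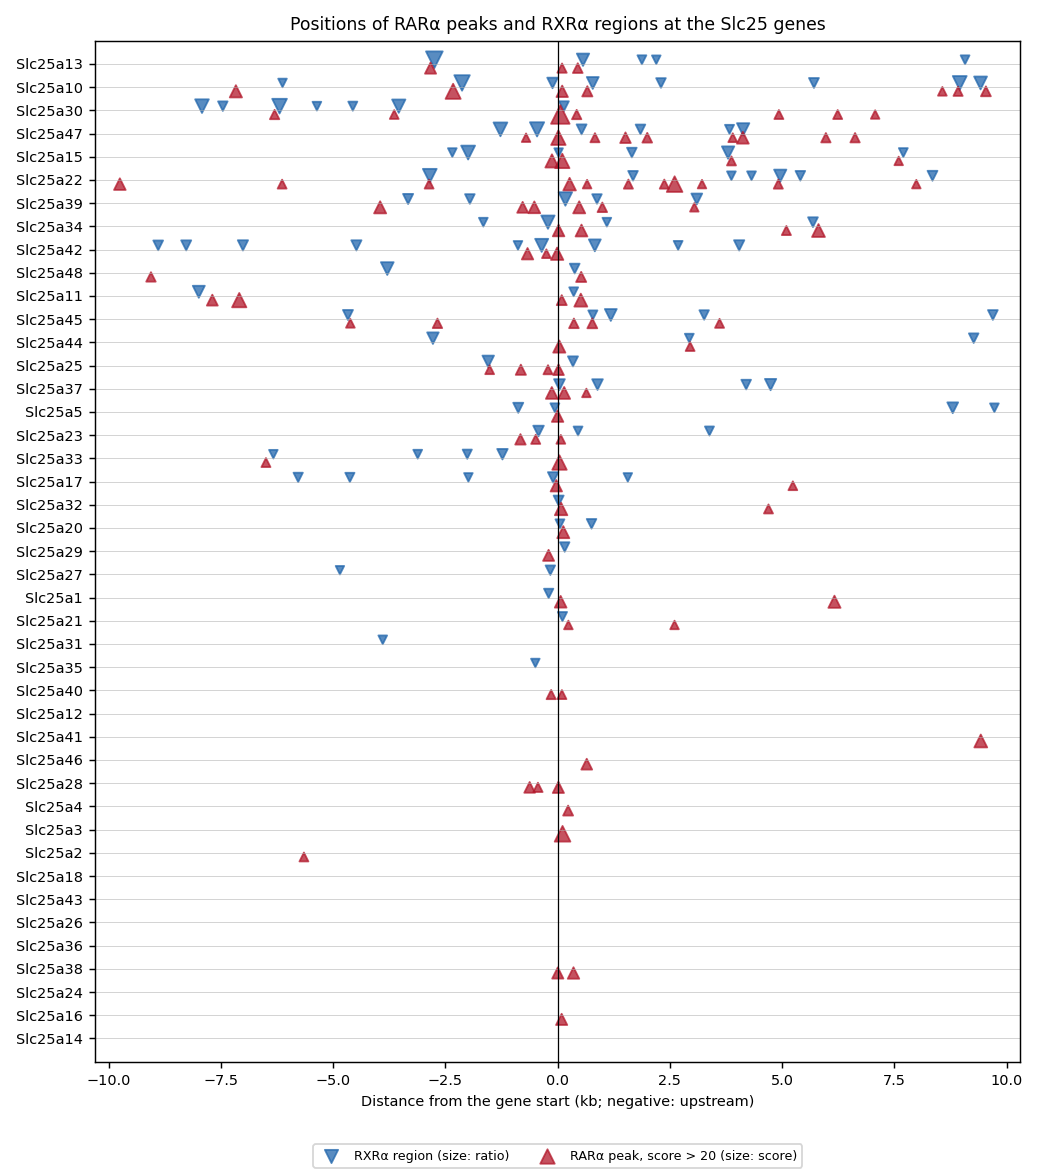
Positions of 101 RXRα regions (blue) and 103 RARα peaks with a score over 20 (red) against distance from the gene start in kb (negative is upstream), with 1 row for each of 43 Slc25 genes in the order of the RXRα ratio and larger symbols for higher ratios or scores. RARα summits gather at the start, with 56 within 1 kb, while RXRα regions are spread over the window, with 32 within 1 kb.

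Of the RARα peaks at the members, 48 (45.7%) overlapped an RXRα region, against 33.1% of the RARα peaks near all genes. The median score was 36 in both. RXRα over the peak had a median of 6.18 times input at the members and 4.53 at all genes. It was 11.1 at the co-localized peaks of the members and 3.40 at their other peaks. Of the RXRα regions at the members, 47 (46.5%) overlapped a RARα peak with a score over 20, against 39.4% over all genes. With RARα peaks of any score the share was 65.3% at the members and 65.6% over all genes, so that the difference between both sets was seen for the higher scores. The strongest RARα peak of a member was itself co-localized in 15 of 34 genes.

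**Figure D4:**
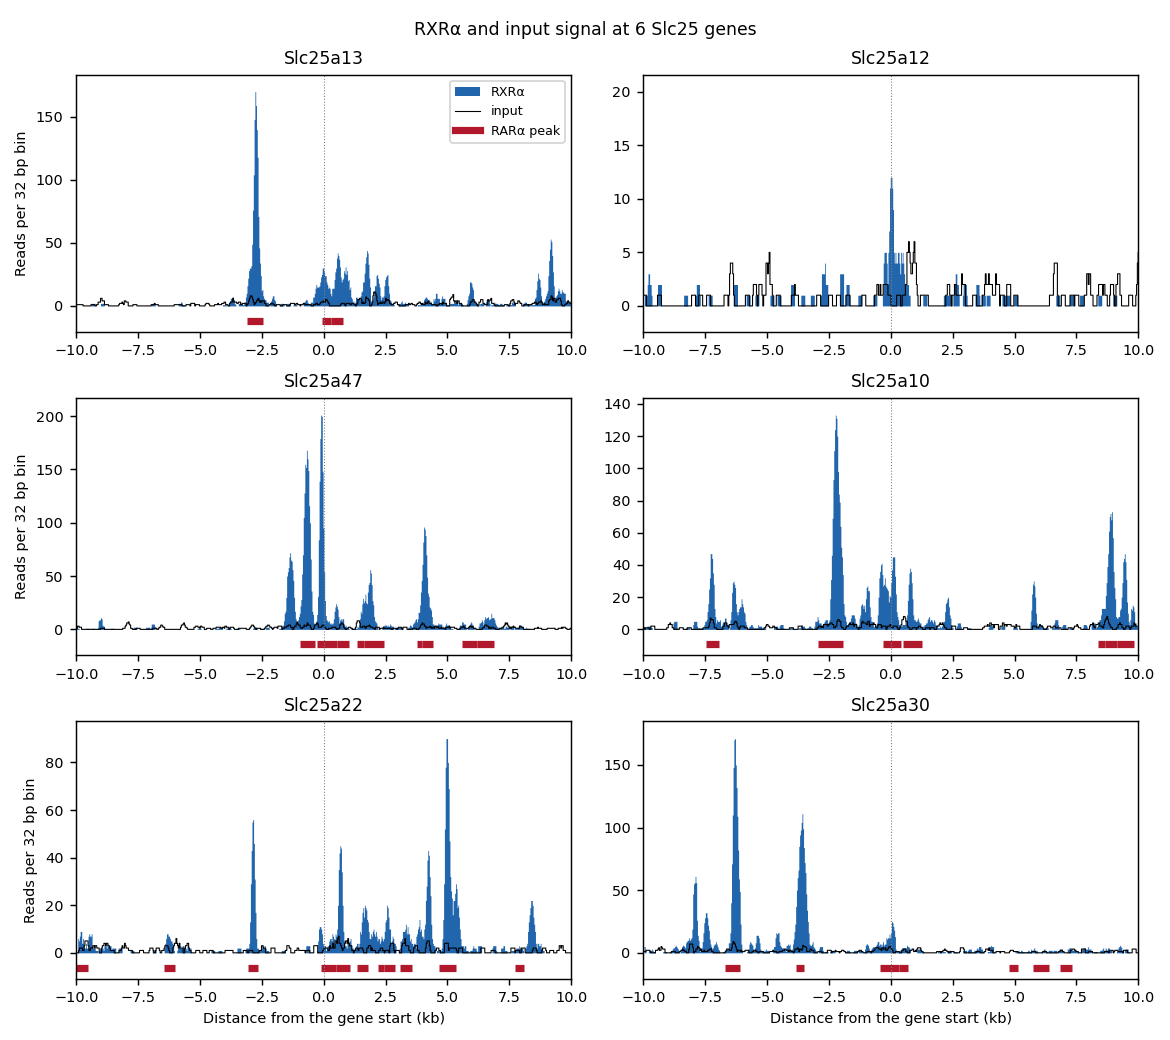
RXRα reads (blue) and input reads (black line) per 32 bp bin against distance from the gene start in kb at 6 Slc25 genes, with bars for RARα peaks with a score over 20 (red) and a vertical scale that differs between panels. The RXRα maximum lies upstream of the start at Slc25a13, with 170 reads, and close to it at Slc25a47, while Slc25a12 reaches 12 reads and has no RARα bar.

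Slc25 genes that encode closely related proteins were set side by side in 12 pairs. Of these, 3 pairs had an RXRα region at both genes and 9 at 1 gene of the pair. This division is sensitive to single reads, since Slc25a12 and Slc25a40 lay 1 read below the threshold and Slc25a35 had just the 13 reads needed. The ratio differed by a factor of 3 or more in 10 of the 12 pairs. The gene with the higher ratio also had the higher RARα score in all 12 pairs. Co-localized binding needs an RXRα region, so the gene with the lower ratio could have it in 3 pairs, and had it in 2 of them. The same counts were not made for other pairs of genes. Among all 44 members, 27 had a region, and the quartiles of the highest ratio were 15.8 and 63.5. Whether related genes differ more or less than other members was therefore not tested.

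The widest difference in the ratio was between Slc25a30 and Slc25a14, at 16.4 times. These had 927.4 and 32 RXRα reads over the 20 kb around the start and 154.8 and 57.4 input reads. Slc25a14 lies on chromosome X and the mice were male, and no value was adjusted for copy number. The part of this in the difference was not tested. Slc25a42 stood 12.3 times above Slc25a16, with 815 and 81 RXRα reads and 173 and 77.6 input reads. Slc25a13 stood 7.43 times above Slc25a12, its relative of muscle and brain, with 888 and 84.4 RXRα reads and 216.6 and 95 input reads. Slc25a15 stood 7.13 times above Slc25a2, and Slc25a22 stood 7 times above Slc25a18. In the first 3 pairs the gene with more RXRα reads thus also had more input reads, by a smaller factor. The narrowest difference was between Slc25a20 and Slc25a29, at 1.05 times, followed by Slc25a25 and Slc25a23, at 1.30 times.

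**Figure D5:**
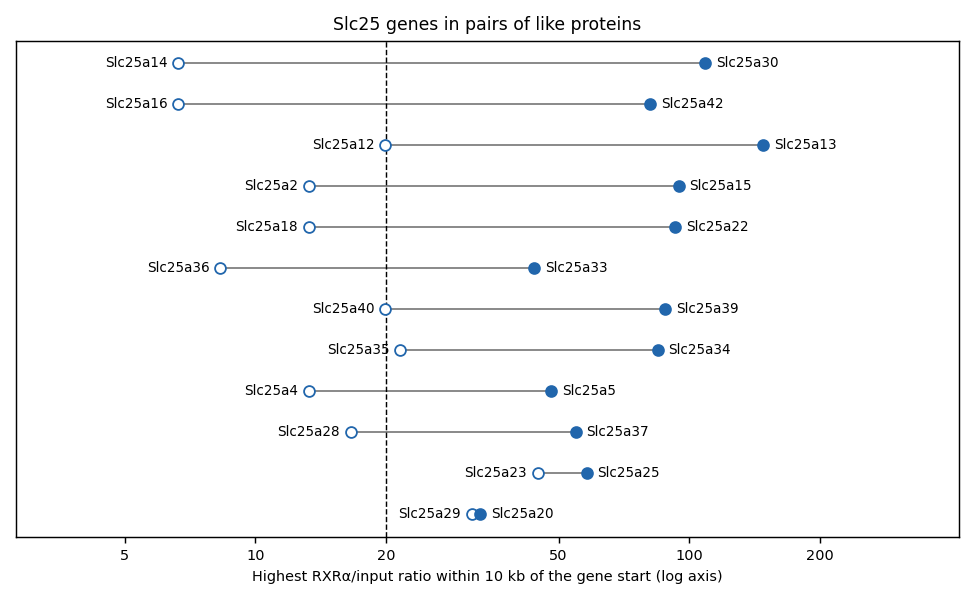
Highest RXRα/input ratio within 10 kb of the gene start (log axis) for 12 pairs of Slc25 genes with closely related proteins, with the gene of the higher ratio as a filled point, the other as an open point and a dashed line at 20. In 9 pairs the line lies between both points, and the pair at the top, Slc25a14 and Slc25a30, differs by 16.4 times.

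The direct repeats were rare at these genes as elsewhere. The search covered 100 bp on each side of each RXRα region's strongest bin and of each RARα summit. A repeat was found at 5 of 101 RXRα regions of the members (4.95%) and at 2.60% of the regions near all genes, and DR1 at 3 (2.97%) and 1.23%. At RARα summits the share was 3 of 105 (2.86%) and 0.509%. A half-site, alone or with others, was found at 59.4% of the RXRα regions of the members and 60.1% of all, and at 32.4% and 31.8% of the RARα summits. A match of letters is a description and no proof of a site.

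In the promoters, from 250 bp before to 50 bp after the start, 5 further motifs were searched on both strands. The SP1 motif GGGCGG was in 27 of 44 (61.4%) of the members and 43.4% of all promoters, and CCAAT was in 22 (50%) and 37.9%. The ETS core CCGGAAG was in 7 (15.9%) and 10.8%. The NRF1 core was in 0 members and 1.18% of all promoters, and the ERR element TCAAGGTCA, which contains the half-site AGGTCA, in 0 members and 0.357%.

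A further list held genes of mitochondrial transport and fatty acid entry without an Slc25a symbol, some of them of the same protein family, such as the uncoupling proteins. Of its 17 gene entries, in which Mcart1 stands under 2 identifiers, 15 had RARα (52.2% of all genes), 12 had RXRα (39.8%) and 9 had both co-localized (23.5%). These are 88.2%, 70.6% and 52.9% of the list, against 77.3%, 61.4% and 54.5% of the Slc25 genes. The median of the highest ratio was 61.4, against 31.5 at the Slc25 genes. The highest ratios of the list were 214 at Mcart1 and 156 at Ucp3, above the 148 of Slc25a13. The ratio was 131 at Cpt1a and 79.6 at Cpt2, which encode carnitine palmitoyltransferases, and 111 at Brp44 and 143 at Brp44l, which encode subunits of the pyruvate carrier. Ucp1, the uncoupling protein of brown fat, had neither factor and a highest ratio of 4.98, from 3 RXRα reads.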

How the data were processed

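ChIP-seq of RXRα, RARα and input was made from mouse liver with 1 library each. Per the labels, reads were processed with CASAVA 1.4 and aligned with Bowtie, and MACS was used for RARα. Per the study's methods the alignment was to mm10 and the annotation to NCBI37/mm9, while the file headers name mm9, which was used here. The authors deposited the RXRα and input signal as whole-number coverage in 32 bp bins, where a read covers 5 bins. The total was 9999939 reads for RXRα and 9999292 for input. For RXRα this is fewer than the uniquely mapped reads that the study reports. For RARα the authors deposited 143280 peaks with a score (5 to 382) and a false discovery rate in percent, and the latter was not used as a filter. Of these, 32946 peaks had a score over 20.

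RXRα was scaled to the mean of the input, bins with a ratio of at least 20 were joined within 200 bp, and this gave 42117 RXRα regions. Because the input floor is the mean, a ratio at 0 input reads rests on the RXRα reads, which was so at 34 of the 44 highest bins. A gene start is the 5′ end of the gene in GENCODE M1, and a peak or region counted for every gene start within 10 kb. The sequences are from the NCBI37 genome. RXRα enrichment over a peak is the mean signal over the mean input. The score threshold and the distance follow the study. The 25% of overlap is also the study's figure, which it gives for peak widths, but here it was taken of the narrower interval. The RXRα regions of the members had a median width of 96 bp and their RARα peaks 491 bp, so this is a loose criterion. With 1 bp of overlap, 24 members and 23.7% of all genes had co-localized binding.

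The genes, the classes of carriers, the pairs and the motifs were chosen with earlier results of these data known. The classes were assigned by list, and the substrate of each member was not checked here. Described in depth were the 8 members with the highest ratio, the 8 with the highest score, those with neither factor and 8 with a known role in liver. Analysis used Python 3.11.15, numpy 2.4.6, pandas 2.3.3, pysam 0.24.0 and matplotlib 3.10.9. The calling of RXRα regions and their overlap with peaks were tested on simulated data, and the other steps were not. A member and a sequence are not reported here by name, and the plots by gene leave out that member, while counts over the members include it.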

Additional observations from a re-analysis of the deposited data

How the results depend on the processing

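With RXRα at least 5 times input, all 44 Slc25 genes had an RXRα region, and so did 86.7% of all genes. With the mean input in place of the larger of bin and mean input, the median highest ratio of the Slc25 genes was 60.6, against 21.6 over all genes. Under the other alternatives run, the Slc25 genes with a RARα peak numbered 25 (at a score over 50, 24.5% of all genes) to 42 (at any score, 67.3%). Those with an RXRα region numbered 23 (at a ratio of 30, 27.9%, and within 1 kb, 21.5%) to 39 (at a ratio of 10, 60.2%), and those with co-localized binding 16 (at a score over 50, 10.9%) to 32 (at a ratio of 5, 47.7%). Each was within 1.5 times the main count. Counting a peak or region for its nearest gene alone, 31, 25 and 23 genes remained, against 45.7%, 34.0% and 18.8% of all genes. This removed Slc25a2, Slc25a41 and Slc25a46 for RARα and Slc25a11 and Slc25a27 for RXRα. At a ratio of 30, Slc25a1, Slc25a21, Slc25a31 and Slc25a35 had no RXRα region. With 1 mismatch allowed in 1 half-site, a choice made after seeing the data, 24 in place of 5 RXRα regions of the members held a direct repeat (23.8% against 20.5% near all genes). No paired analysis was possible because each antibody had 1 library. Without replicates, the variation between mice is not covered, and 13 RXRα reads in a bin were needed at 0 input reads.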
